A study of Homo sapiens with 4 samples.

Results

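The 10 secreted matrix genes described here are the large proteoglycan VCAN, the small leucine-rich proteoglycans DCN, BGN, LUM, FMOD, PRELP, ASPN and OGN, and the matricellular proteins POSTN and SPP1. The 10 genes were chosen by name from 18417 genes with a value, after their levels, the difference between the cell lines and the FBP1 minus control differences had been seen. SPP1, LUM, POSTN and VCAN had stood out in those values, so the levels and both differences are given as a description of these arrays, with no test. Each of the 10 genes was read by 1 Affymetrix probe set annotated to that gene alone.

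RNA came from MDA-MB231 and Hs578T, 2 established human breast cancer lines labelled basal-like, in log-phase growth in medium with serum. Each line was measured once as control cells and once as cells expressing FBP1, the gluconeogenic enzyme fructose-1,6-bisphosphatase, from selected stable clones. How many clones were used, the promoter that drove FBP1 and whether the control cells carried an empty vector are not stated in the labels. The 4 arrays thus formed 4 groups of 1 array, with array medians of 7.83 to 7.86 on the log2 scale. FBP1 itself, which checks the labels, read 9.83 and 13.07 log2 in the MDA-MB231 control and FBP1 arrays, and 6.35 and 13.35 in those of Hs578T. Of 9 basal-like markers listed, 6 had a value used here, and all 6 passed the filter on low values. Over the 4 arrays KRT5 read 6.80 to 6.93 log2, KRT14 8.45 to 9.62, CDH3 6.94 to 8.18, EGFR 10.63 to 11.05, VIM 13.71 to 13.72 and CAV1 13.66 to 13.92.

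Small leucine-rich proteoglycans are short core proteins, most of them with attached glycosaminoglycan chains, that bind collagen fibrils, set fibril width and spacing, and hold growth factors such as TGF-beta. Versican carries chondroitin sulfate chains, binds hyaluronan and makes a hydrated, loose matrix. Periostin and osteopontin add little to the structure of the matrix and act as signals that cells read through integrins. In breast tumours most of these proteins are known as products of stromal fibroblasts, and osteopontin as a product of both carcinoma cells and macrophages.

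The 10 genes fell into 3 patterns across the arrays. VCAN, POSTN, LUM, DCN and BGN were bright in both Hs578T arrays and at least 33.5-fold dimmer, on the mean of 2 arrays, in MDA-MB231. SPP1 was brighter in MDA-MB231 and was lower with FBP1 in both lines. FMOD, PRELP, ASPN and OGN spanned at most 0.70 log2 units over all 4 arrays. A mean over the 4 arrays below 6.16 log2, the 25th percentile of all probe sets, kept a gene out of the 15946 genes used for shares and tests. FMOD, ASPN and OGN fell below it, and 7 of the 10 passed. DCN passed only through its Hs578T arrays.

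**Figure D1:**
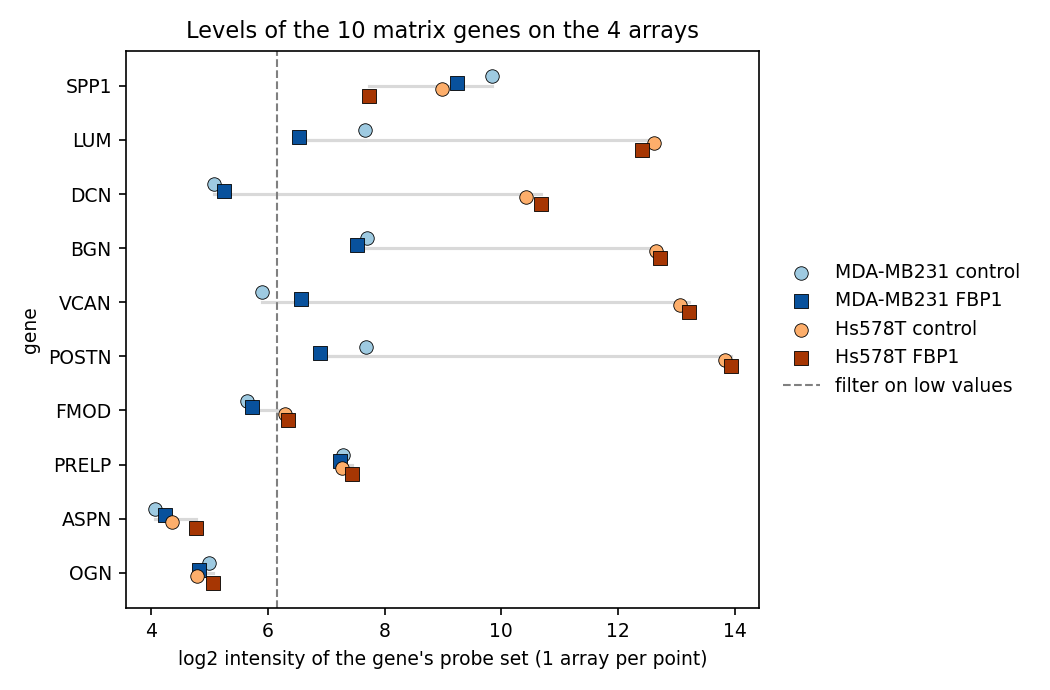
Log2 intensity of each of the 10 genes (rows) on each of the 4 arrays, with circles for control and squares for FBP1 arrays and 1 array per point. VCAN, POSTN, LUM, DCN and BGN sit above 10 in both Hs578T arrays and below 8 in both MDA-MB231 arrays; the dashed line at 6.16 marks the filter on low values. Probe sets differ in brightness, so levels are read along a row and not between rows.

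VCAN encodes versican. In MDA-MB231 it read 5.90 log2 in control cells and 6.57 with FBP1, and in Hs578T 13.07 and 13.22. The lines did not overlap, and the difference was the widest of the 10, at −6.91 log2 for MDA-MB231 minus Hs578T, or 120-fold. Only 0.0125% of tested genes, VCAN included, differed between the lines by as much. The MDA-MB231 control value lay below the filter level and no detection call was given, so that fold is uncertain in size. VCAN was also the only one of the 10 that was at least 1.5-fold higher with FBP1 in MDA-MB231, at 0.66 log2 or 1.58-fold, against 0.16 log2 in Hs578T. That MDA-MB231 difference runs from below the filter level to slightly above it, so its size is uncertain too. In bulk RNA, fewer cells that express a gene and less RNA per cell cannot be told apart.

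POSTN encodes periostin, which binds integrins and collagen and is known from wound healing and metastatic niches. It read 7.68 in the MDA-MB231 control, 6.90 with FBP1, 13.83 in the Hs578T control and 13.93 with FBP1. The line difference was −6.59 log2, or 96.6-fold. In MDA-MB231 the FBP1 array was 1.71-fold below control (−0.78 log2), a size that 0.226% of tested genes reached in either direction. In Hs578T the pair differed by 0.09 log2, and 60.9% of genes there moved by at least as much.

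Among the small leucine-rich proteoglycans, LUM encodes lumican, a keratan sulfate proteoglycan of collagen fibrils. It read 7.67 in the MDA-MB231 control, 6.54 with FBP1, 12.62 in the Hs578T control and 12.41 with FBP1. LUM had the widest FBP1 difference of the 10 genes in MDA-MB231, at −1.13 log2 or 2.19-fold lower, with the FBP1 value near the filter level. It was 1 of 3 tested genes at least 2-fold lower there, which is 0.0188% of those tested. Hs578T showed the same sign at −0.21 log2, a size that 28.2% of genes reached. The lines differed by −5.41 log2, or 42.5-fold.

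DCN encodes decorin, which binds TGF-beta and collagen. It read 5.09 and 5.25 in the MDA-MB231 control and FBP1 arrays, and 10.42 and 10.68 in those of Hs578T. The line difference of −5.38 log2, or 41.7-fold, rests on MDA-MB231 values below the filter level, so its size is uncertain. FBP1 minus control was 0.16 for DCN in MDA-MB231 and 0.26 in Hs578T, sizes reached by 23.6% and 19.6% of genes. BGN, the gene of biglycan, the closest relative of decorin, read 7.70 and 7.53 in the MDA-MB231 control and FBP1 arrays. In Hs578T it read 12.65 and 12.71, a line difference of −5.07 log2 or 33.5-fold. Its FBP1 differences were −0.18 in MDA-MB231 and 0.06 in Hs578T, the latter the narrowest among the 5 genes abundant in Hs578T.

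The other small leucine-rich proteoglycans showed little difference between arrays. FMOD encodes fibromodulin, a collagen-binding relative of lumican, and read 5.65, 5.73, 6.30 and 6.35 in the MDA-MB231 control, MDA-MB231 FBP1, Hs578T control and Hs578T FBP1 arrays. Both Hs578T values lay above both MDA-MB231 values, by 0.63 log2 on average. PRELP, which anchors basement membranes to collagen, read 7.28, 7.24, 7.27 and 7.44 in the same order, and the lines overlapped. ASPN, the gene of asporin, read 4.07, 4.23, 4.37 and 4.78, and OGN, the gene of osteoglycin, 5.00, 4.83, 4.79 and 5.07. ASPN and OGN lay below the filter level on all 4 arrays and FMOD in MDA-MB231, and FBP1 minus control was at most 0.41 log2 for these 3 genes in either line. Signals this low carry little information about a difference.

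SPP1 encodes osteopontin, a phosphorylated glycoprotein that binds integrins and CD44. It read 9.84 in the MDA-MB231 control, 9.24 with FBP1, 8.98 in the Hs578T control and 7.73 with FBP1. Both MDA-MB231 arrays thus lay above both Hs578T arrays, and within each line the FBP1 array was the lower. The FBP1 difference was −0.60 log2 (1.51-fold lower) in MDA-MB231 and −1.25 log2 (2.37-fold lower) in Hs578T. Changes of these sizes, in either direction, were reached by 0.583% of tested genes in MDA-MB231 and 0.351% in Hs578T. The MDA-MB231 value lay just past the 1.5-fold level of 0.585 log2. Between the lines SPP1 differed by 1.19 log2, or 2.28-fold, and by 1.82-fold in the control arrays and 2.85-fold in the FBP1 arrays.

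Set together, 3 of the 10 genes (SPP1, LUM and POSTN) were at least 1.5-fold lower with FBP1 in MDA-MB231, beside 0.326% of all genes tested, and 1 (VCAN) was as much higher, beside 0.301%. In Hs578T, SPP1 alone was at least 1.5-fold lower, beside 1.69% of genes, and it was also at least 2-fold lower, beside 0.458%. None of the 10 was at least 1.5-fold higher in Hs578T, beside 1.39%. The median over the 10 genes was −0.11 in MDA-MB231 and 0.12 in Hs578T, against −0.01 and 0.02 over all genes tested. Between the lines the median was −2.85, against −0.02, and 5 of the 10 were at least 4-fold higher in Hs578T, beside 1.86% of genes, and the same 5 made up those at least 2-fold higher, beside 5.34%. SPP1 alone was at least 2-fold higher in MDA-MB231, beside 5.45%. These contrasts chose the genes, so nothing is read from the counts, and with 1 array per group none of the FBP1 differences had a replicate check.

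**Figure D2:**
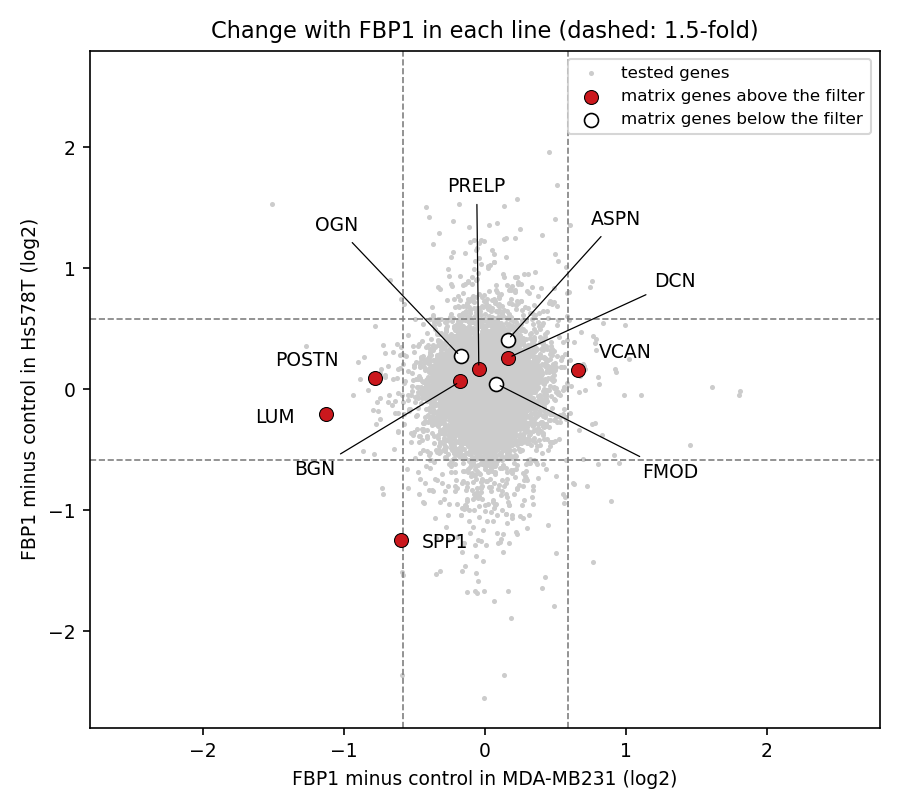
FBP1 minus control in MDA-MB231 (x axis) against Hs578T (y axis), in log2 units, for the 10 genes (red above the filter on low values, white below it) and all genes tested (grey; FBP1 and any gene beyond the axes are not drawn). SPP1 lies in the lower left at −0.60 and −1.25, LUM and POSTN lie past the dashed 1.5-fold line on the left only, and VCAN past it on the right only.

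The size of the line difference depended on the arrays used for LUM, POSTN, VCAN and SPP1. LUM was 30.9-fold higher in Hs578T between the control arrays and 58.4-fold between the FBP1 arrays. POSTN was 71.5-fold higher between the controls and 131-fold between the FBP1 arrays. VCAN went the other way, from 143-fold to 101-fold. For DCN the values were 40.3-fold and 43.1-fold, and for BGN 30.8-fold and 36.4-fold.

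Promoter letters are shown for SPP1, POSTN and VCAN, the genes that stood out and for which the RefSeq promoter table (GRCh38.p14) held an entry. Each window runs from 250 bases before the start of the gene to 50 after it, 5′ to 3′ on the gene's strand. Capitals mark every match to 4 motifs searched on both strands: TATAAA, known as the TATA box, ACCACA, the core that RUNX factors bind, TGANTCA, the AP-1 site, and CANNTG, the E box. An AP-1 or E box match reads as a match on both strands and was counted once, and neighbouring matches can overlap.
SPP1, chr4:87975464-87975763, + strand: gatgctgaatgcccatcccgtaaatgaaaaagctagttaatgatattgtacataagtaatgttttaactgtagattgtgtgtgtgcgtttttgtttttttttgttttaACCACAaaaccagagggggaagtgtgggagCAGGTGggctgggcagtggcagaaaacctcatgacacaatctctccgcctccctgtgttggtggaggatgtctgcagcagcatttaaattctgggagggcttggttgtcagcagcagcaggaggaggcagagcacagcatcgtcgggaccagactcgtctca
POSTN, chr13:37598719-37599018, − strand: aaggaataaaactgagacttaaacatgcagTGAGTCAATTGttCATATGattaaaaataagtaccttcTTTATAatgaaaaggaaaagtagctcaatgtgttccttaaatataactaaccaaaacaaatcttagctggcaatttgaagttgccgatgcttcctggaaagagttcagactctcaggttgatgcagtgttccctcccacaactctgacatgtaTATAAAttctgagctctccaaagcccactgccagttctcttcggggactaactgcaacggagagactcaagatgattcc
VCAN, chr5:83471494-83471793, + strand: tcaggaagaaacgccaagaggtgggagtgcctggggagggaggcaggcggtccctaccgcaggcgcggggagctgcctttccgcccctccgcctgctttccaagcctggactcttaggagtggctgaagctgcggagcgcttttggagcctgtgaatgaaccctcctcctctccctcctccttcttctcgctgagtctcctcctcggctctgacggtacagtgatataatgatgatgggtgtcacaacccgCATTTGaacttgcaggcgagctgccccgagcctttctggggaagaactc
SPP1 held a RUNX core that begins 142 bases before the start and an E box that begins 112 bases before it. POSTN held a TATA box that begins 29 bases before the start, another on the opposite strand at 182, an AP-1 site at 220 and E boxes at 215 and 207, the AP-1 site sharing letters with the E box at 215. VCAN held 1 E box, just after the start. Over all 35116 windows of this length, 11.5% held the TATA box, 13.1% the RUNX core, 7.71% the AP-1 site and 68.7% the E box.

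The windows also differed in base composition. G and C made up 39.0% of the POSTN window, 47.7% of the SPP1 window and 60.3% of the VCAN window, against a median of 58.7% over all windows. BGN, bright in Hs578T like POSTN and VCAN, had 71.7% G and C and none of the 4 motifs. FMOD had 1 TATA box match on the opposite strand, PRELP no match to any motif and ASPN 2 E boxes. Both OGN windows held a TATA box match on the opposite strand, a RUNX core and 2 E boxes. A match is a match of letters only, and whether any factor binds there was not measured.

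Several of the 10 genes lie beside relatives, which allowed a comparison within a neighbourhood. On chromosome 12 the order is EPYC, KERA, LUM and DCN, with no other protein-coding gene between them in RefSeq. LUM and DCN differed by −5.41 and −5.38 log2 between the lines, whereas KERA and EPYC lay between 4.95 and 5.34 log2 on all 4 arrays, below the filter. On chromosome 9, OGN, OMD, ASPN and ECM2 follow each other. ECM2 was called higher in Hs578T by limma (0.86 log2 ± 0.12 SE, adjusted p = 0.00219). It read 5.97 and 5.93 in the MDA-MB231 control and FBP1 arrays, below the filter level. ECM2 thus passed the filter only through its Hs578T arrays, at 6.71 and 6.90. OGN, OMD and ASPN lay below the filter, with OMD reading 4.17 in the Hs578T control and 5.16 with FBP1.

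FMOD and PRELP are followed on chromosome 1 by OPTC, the gene of opticin, which read 6.84 to 7.10 log2 and was not called (adjusted p = 0.208 in limma). SPP1 lies at the end of the SIBLING family on chromosome 4, after DSPP, DMP1, IBSP and MEPE, which encode proteins of bone and tooth mineral. Those 4 genes lay between 4.54 and 5.98 log2 on all arrays, below the filter, while SPP1 read 7.73 to 9.84. VCAN is followed on chromosome 5 by HAPLN1, whose protein locks versican to hyaluronan and which read 4.74 to 5.32.

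**Figure D3:**
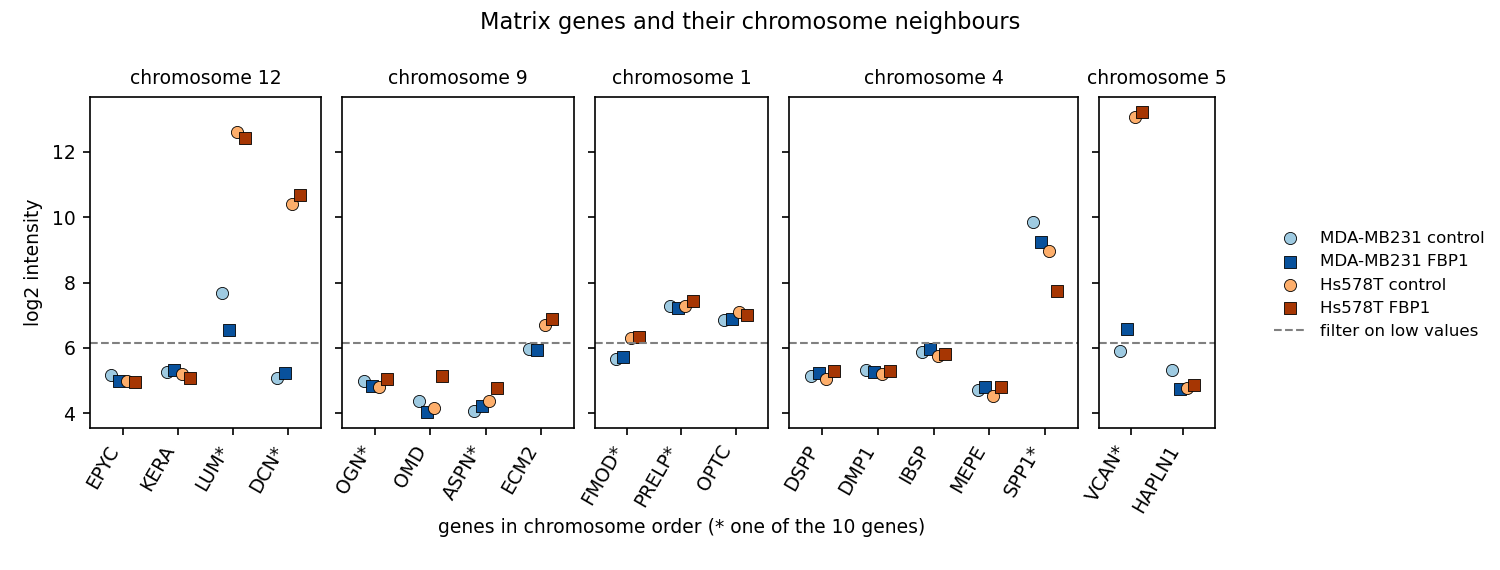
Log2 intensity on the 4 arrays for genes in chromosome order in 5 neighbourhoods, with an asterisk on each of the 10 genes, circles for control and squares for FBP1 arrays. LUM and DCN reach 12.6 and 10.7 in Hs578T beside KERA and EPYC, which stay below the dashed filter level of 6.16, as do the 4 neighbours of SPP1 and HAPLN1 beside VCAN.

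The genes nearest in pattern were taken by the root mean square difference of gene-centred log2 values over the 4 arrays. For SPP1 they were RNU5A-1 (0.14), PITPNC1, a phosphatidylinositol transfer protein gene (0.14), and PCDHB9 (0.15). PITPNC1 read 10.05 and 9.73 in the MDA-MB231 control and FBP1 arrays and 9.52 and 8.02 in those of Hs578T. RNU5A-1 and PCDHB9 belong to families of similar sequences, so their values are uncertain. For LUM they were MMP2 (0.27), the gelatinase A gene, SLITRK6 (0.33) and STC2 (0.37), with BGN at 0.39. For POSTN they were SNORD116-21 (0.45), DSEL (0.46), an epimerase-like gene of dermatan sulfate synthesis, and SNORD116-14 (0.47), with VCAN at 0.53. For VCAN they were SNORD116-24 (0.43), the cadherin gene CDH6 (0.47) and SNORD116-21 (0.53), with POSTN at 0.53 also. The snoRNA copies are similar in sequence and uncertain. With 4 arrays in 2 lines, the line difference sets most of this likeness for LUM, POSTN and VCAN.

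Other genes of the matrix, which had not been chosen by these values one by one, were tested between the lines with limma. Of 138 genes in 9 lists, 120 could be tested: 54 (45%) were called higher in Hs578T at an adjusted p under 0.05, and 14 (11.7%) higher in MDA-MB231. Over all genes the shares were 19.0% and 21.8%, and the median line difference was −0.22 log2 against −0.02 over all genes. These p-values and SEs rest on 2 arrays per line that differ in construct and on 1 residual degree of freedom. That residual is how far the FBP1 difference disagreed between the lines, moderated over genes. It does not measure the spread between replicate cultures, and nothing in the labels says that the arrays came from separate cultures. The lists were written with results of these data known, and their share is not independent evidence of a direction. Some called genes passed the filter only through the line where they were high. ECM2, TNFAIP6, DSEL, CHSY3, ITGA8, ITGA4 and MYOCD lay below 6.16 log2 in both MDA-MB231 arrays, and MMP3 in both Hs578T arrays. The sizes of these differences are uncertain, and the counts of calls include them.

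Among 7 other small leucine-rich proteoglycans tested, 3 were called, ECM2, PODN (0.82 log2) and TSKU (0.33 log2), all higher in Hs578T. Of 21 other matricellular genes, 9 were higher in Hs578T, led by MGP (3.50 log2), FBLN1 (2.70) and SPARC (2.41), and 3 were higher in MDA-MB231, THBS2 (3.54), TNC (2.24) and THBS1 (0.17). None of the 4 SIBLING relatives of SPP1 could be tested. Of 10 lectican and hyaluronan genes, the hyaluronan synthase gene HAS2 was higher in MDA-MB231 (2.23 log2 ± 0.24 SE, limma adjusted p = 0.000897) and TNFAIP6 in Hs578T (2.21). Among 14 cell surface and other proteoglycans, 10 were higher in Hs578T, led by GPC6 (3.60), SPOCK1 (2.67) and CSPG4 (1.64), and 0 higher in MDA-MB231.

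The machinery around the proteoglycans was compared in the same way. Of 26 genes of glycosaminoglycan chain synthesis, 9 were higher in Hs578T, led by DSEL (5.80 log2 ± 0.13 SE, limma adjusted p = 4.16e-06), CHSY3 (2.52) and XYLT1 (1.70). Another 4 were higher in MDA-MB231, among them the chondroitin sulfotransferase genes CHST11 (2.48) and CHST15 (0.95) and the chain-starting CSGALNACT1 (0.55). DSEL and CHSY3 read below the filter level in both MDA-MB231 arrays, so the sizes of their differences are uncertain. Of 14 receptors, 8 were higher in Hs578T, led by ITGA8 (4.21), ITGA4 (3.69) and TLR4 (3.05), and TLR2 was higher in MDA-MB231 (0.63). The integrin genes ITGAV and ITGB5, whose products bind osteopontin and periostin, were 0.71 and 0.93 log2 higher in Hs578T. In that line SPP1 was the lower and POSTN the higher. CD44 was not called (13.68 to 13.88 on all arrays). Of 12 genes listed as proteases or their cofactors, 5 were higher in Hs578T, led by MMP2 (5.43), ADAMTS5 (4.40) and BMP1 (1.64). In MDA-MB231, 3 were higher, ADAMTS9 (2.38), MMP14 (0.72) and MMP3 (0.40). Of 17 regulators, 9 were higher in Hs578T, led by MYOCD (4.84), PRRX1 (3.35) and TWIST1 (1.34), a known activator of POSTN. ETS1 (0.87) and RUNX2 (0.80), a known activator of SPP1, were higher in MDA-MB231.

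**Figure D4:**
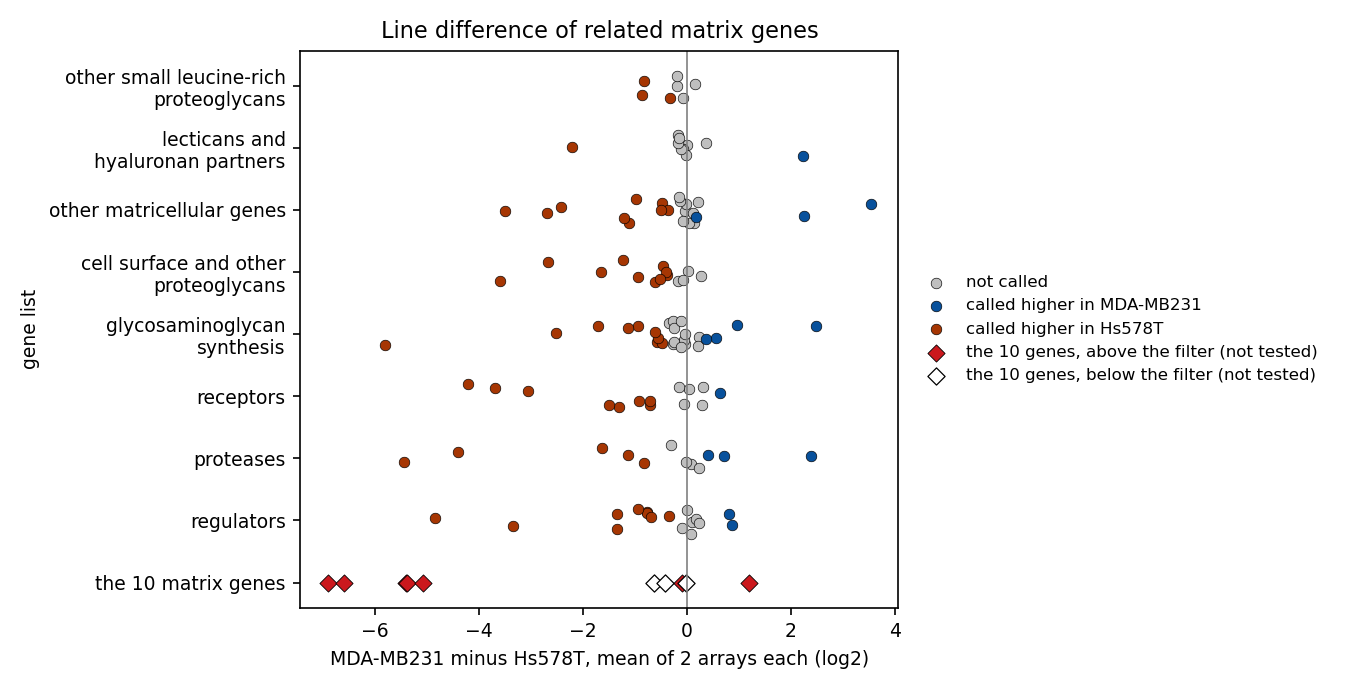
MDA-MB231 minus Hs578T (mean of 2 arrays each, log2) for each tested gene of the lists of related genes, blue and brown where limma called it; the 10 matrix genes are diamonds in the bottom row. VCAN and POSTN lie furthest left at −6.91 and −6.59, past DSEL at −5.80 and MMP2 at −5.43, and THBS2 lies furthest right at 3.54.

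Among the markers of cell types, those of fibroblasts mostly moved with VCAN, POSTN, LUM, DCN and BGN between the lines. Of 9 fibroblast markers tested, 7 were called higher in Hs578T, led by THY1 (5.29 log2), COL1A2 (4.44) and PDGFRA (3.49), and S100A4 was higher in MDA-MB231 (2.68). Their median level was 7.62 and 7.49 log2 in the MDA-MB231 control and FBP1 arrays, and 10.13 and 9.94 in those of Hs578T. With FBP1 in Hs578T, where SPP1 was lower, the fibroblast marker FAP read 6.67 against 8.01 in control cells, and the basal keratin gene KRT14 9.62 against 8.85. FAP lay below the filter level in both MDA-MB231 arrays and passed only through Hs578T. All samples are labelled as cell lines, and the part of these markers in the line difference was not tested. Leukocyte markers were mixed in level. PTPRC lay between 4.52 and 4.96 log2 on all arrays, whereas CD68 lay between 10.99 and 11.60, TYROBP between 8.70 and 8.99 and CD14 between 7.41 and 8.30. Of 7 leukocyte markers with a value, 3 passed the filter. Of these 3, 1 was called, CD14, higher in MDA-MB231. Of 5 endothelial markers 2 were called, PECAM1 and KDR, both higher in MDA-MB231. Of 8 luminal markers, KRT19, KRT8 and GATA3 were higher in MDA-MB231 and XBP1 in Hs578T. Of 6 basal markers, CDH3 was higher in MDA-MB231 and KRT14 in Hs578T, and of 4 osteoblast markers RUNX2 was higher in MDA-MB231 and ALPL and PHEX in Hs578T.

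With FBP1 in MDA-MB231, where LUM, POSTN and SPP1 were lower, 0 of the 120 related genes were at least 1.5-fold lower, beside 0.326% of all genes, and 2 (1.67%) were as much higher, beside 0.301%: the integrin gene ITGB3 (0.83 log2) and the versican-cutting ADAMTS1 (0.74). In Hs578T, where SPP1 was lower, 5 (4.17%) were at least 1.5-fold lower, beside 1.69% of all genes: CHST11 (−1.0), ITGA8 (−0.83), MMP13 (−0.69), TGFB3 (−0.68) and GPC6 (−0.61). There 5 (4.17%) were as much higher, beside 1.39%: HAS2 (1.25), MYOCD (1.12), ADAMTS1 (0.84), TNC (0.68) and ADAMTS5 (0.59). Their medians were −0.001 in MDA-MB231 and 0.020 in Hs578T. Over both lines limma called 0 of the 120, as it called 0% of all genes tested, and the smallest adjusted p was 0.943. An unadjusted p under 0.05 was reached by 20 of the 120 (16.7%) and by 819 of all 15946 genes (5.14%). Because the lists were written with results of these data known, nothing is read from the gap between these shares. FBP1 itself, at 5.12 log2 ± 0.77 SE over both lines, was not called either (limma adjusted p = 0.943), so the absence of calls says little about any gene.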

How the data were processed

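Total RNA of the 4 cell line samples was hybridised to Affymetrix arrays. The values deposited by the authors are log2 intensities of 33297 probe sets; the scale was read from the values, which run from 2.40 to 14.81. The submitters' processing notes name Affymetrix Expression Console 1.1.2800.28061, and the normalization it applied is not stated there. Scaling arrays to a common level hides any change in total RNA per cell. The number of arrays limits the precision of every value.

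Probe sets annotated to 1 gene were kept (19460), and the one with the highest mean represented a gene. Genes whose mean lay under the 25th percentile of all probe sets were left out of tests. Differences within a line are FBP1 minus control. Limma 3.58.1 in R 4.3.3 was fitted to all 15946 genes with terms for cell line, which pairs each FBP1 array with its control, and construct, with an intensity trend in the variance prior (prior degrees of freedom 5.04). P-values were adjusted by Benjamini-Hochberg over these genes, with calls at 0.05.

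The 10 genes, the gene lists and the tests were chosen with earlier results of these data known. Named related genes were up to 3 called genes each way per list by size of the line difference, and up to 2 per list and line with the widest FBP1 difference of at least 1.5-fold. ADAMTS5 in Hs578T, ITGAV, ITGB5, CD44, EGFR, VIM, KRT5, CAV1, PTPRC, CD68 and TYROBP fall outside that rule and were named after their values were seen. HAS1, TNXB, SDC4, ADAMTS15, KRT17, KRT6B, FOXC1 and BGLAP were not analysed here. Promoters are RefSeq's, with an entry used for 8 of the 10 genes. Alternatives covered the probe set rule, quantile normalization, median centring, the filter, the variance prior, the terms of the fit and the fold level.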

Additional observations from a re-analysis of the deposited data

Results flagged for a closer look

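For 9 of the named genes the FBP1 difference had opposite signs in the lines and reached 1.5-fold in at least 1 of them. With 1 array per group this difference between the lines was not tested. POSTN differed by −0.78 log2 in MDA-MB231 and by 0.09 in Hs578T, a gap of 0.87. The tenascin gene TNC, at −0.21 and 0.68, differed by 0.90 in the same direction. The integrin genes ITGB3 (0.83 and −0.38) and ITGA8 (0.34 and −0.83) differed the other way, by −1.21 and −1.17 for Hs578T minus MDA-MB231. GPC6, at 0.32 and −0.61, differed by −0.93. The fibroblast marker FAP had the widest gap of the 9, at 0.13 and −1.34, or −1.47. KRT14, at −0.19 and 0.77, differed by 0.96. OMD, at −0.35 and 0.99, differed by 1.34 but lay below the filter on low values. ITGA8 and FAP passed the filter but lay below its level in both MDA-MB231 arrays. The signs of their MDA-MB231 differences are therefore uncertain. CHST11 read 12.20 and 12.21 in the MDA-MB231 control and FBP1 arrays and 10.22 and 9.22 in those of Hs578T, a gap of −1.0. Its MDA-MB231 difference was only 0.0017 log2, so the sign there carries little information.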

How the results depend on the processing

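The values of the 10 genes were recomputed 155 times in all under the alternatives; 145 moved by less than a yardstick, 10 moved by more, all of them line differences from the control or the FBP1 arrays alone, and 0 of those past the fold level changed sign. SPP1 in MDA-MB231 ranged from −0.60 to −0.59, close to the 1.5-fold level. The yardstick was the standard deviation over all genes of FBP1 minus control (0.16 log2 in MDA-MB231, 0.26 in Hs578T) and, for the line difference, the 0.15 log2 that these 2 values give for a mean of 2 arrays per line. At a 2-fold level 1 of the 10 genes (LUM) was lower and 0 were higher in MDA-MB231; at a 1.25-fold level, added after the data were seen, 1 (ASPN, below the filter) was higher in Hs578T. Between the lines, 0 of the 10 were higher in MDA-MB231 at a 4-fold level or by 2-fold in the control arrays alone. Counted at 2-fold without a test, related genes higher in MDA-MB231 numbered 6 in the control arrays and 5 in the FBP1 arrays, and those higher in Hs578T 31 and 25; the fitted alternatives gave 12 to 14 and 45 to 55 calls. For FBP1, limma called 0 related genes under the alternatives fitted, also with no block for cell line, but FBP1 itself was not called in the fit reported either. No group had a second array to leave out. Values near or below the filter level, as for VCAN, DCN and, with FBP1, LUM in MDA-MB231, make the size of the folds that rest on them uncertain.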
